A study of Mus musculus with 8 samples.

Results

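Aggrecan, link protein, the cartilage matrilins, COMP and Ucma make up much of the noncollagenous matrix that chondrocytes secrete. Their genes, *Acan*, *Hapln1*, *Matn1*, *Matn3*, *Comp* and *Ucma*, were taken by name from the gene names that the authors deposited and were then followed by Ensembl identifier into the count table, where all 6 were found among 43629 genes. The study asked how resting and proliferative chondrocytes of the postnatal growth plate differ. Axin2CreERT2;R26RTdTomato mice, in which tamoxifen marks cells that express *Axin2* and their descendants with a red fluorescent protein, were given tamoxifen on 3 days in a row starting at P23 and were killed at P30. All 4 mice, males 1 and 2 and females 6 and 13, carried both alleles and received the same treatment, so there was no unlabeled or untreated animal. By laser microdissection of frozen 8 μm sections, red resting chondrocytes and unlabeled proliferative chondrocytes were taken from the same animal, which gave 1 library of each kind per mouse and n = 4 per zone. Proliferative cells were recognized by their flat shape and by a distance of 50 μm or more from the secondary ossification center, and resting cells by their fluorescence, so the groups differed in label as well as in zone. The sample labels name tibiae, whereas the methods name femoral growth plates as well.

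Aggrecan is the large proteoglycan whose chondroitin sulfate chains hold the water that lets cartilage resist compression. It does not stay in the matrix alone. It binds the polysaccharide hyaluronan, and link protein, the product of *Hapln1*, locks that bond so that many aggrecan molecules line up along 1 hyaluronan strand. Matrilin-1 and matrilin-3 are adaptor proteins with von Willebrand factor A domains, and COMP is a pentamer of the thrombospondin family. These adaptors tie collagen fibrils, proteoglycans and each other into a network. *Ucma* encodes a small secreted protein rich in gamma-carboxyglutamate, an amino acid made by a vitamin K dependent reaction. Mutations in the human genes of aggrecan, matrilin-3 and COMP cause skeletal dysplasias, and *Sox9* is the transcription factor that drives much of the cartilage matrix programme.

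Resting libraries held 192882 to 462044 counts each, and proliferative libraries 249284 to 631474. The 6 genes took 0.154% to 0.720% of all counts in the resting libraries and 1.36% to 2.49% in the proliferative ones. Values are CPM, counts scaled to a common library size with edgeR's TMM factors, and log2 fold changes are resting over proliferative, so that a negative value means less in the resting zone. The 10 chondrocyte markers were detected in all 8 libraries, and their summed level was 6216 to 13692 CPM in the resting libraries and 20439 to 34690 CPM in the proliferative ones. The resting libraries also held RNA of other cells. The summed level of 10 osteoblast and osteocyte markers was 9595 to 37416 CPM there and 620 to 4005 CPM in the proliferative libraries, where *Mepe* and *Sost* had no count. Of these 10, 5 were tested, and 2 were called higher in the resting zone and 0 lower, beside 11.0% and 6.93% of all tested genes. *Sp7* of this list went the other way and lay below the proliferative libraries in each resting library. The 7 osteoclast markers summed to 1487 to 4520 CPM against 14.4 to 439 CPM, with *Ocstamp* and *Calcr* at 0 in the proliferative libraries, the 7 erythroid markers to 1811 to 12026 CPM against 0 to 1716 CPM, and the 10 leukocyte markers to 1953 to 2910 CPM against 1.60 to 501 CPM, with *Cd79a* and *Coro1a* at 0 there. Of the 7 hypertrophic markers 6 were tested, and 2 were called in each direction. *Col10a1* (7.85 ± 10.4 CPM in resting and 189 ± 133 CPM in proliferative libraries) and *Panx3* (24.4 ± 18.4 and 736 ± 161 CPM, SD, n = 4 for all) were called lower in the resting zone and *Ihh* had no count there, whereas *Mmp13* and *Spp1* were called higher. Their sum was 799 to 1574 CPM in the resting and 1004 to 1628 CPM in the proliferative libraries. The part of any of these cells in the zone differences was not tested. Fewer chondrocytes in a dissected region and less RNA per chondrocyte cannot be told apart in such libraries.

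The resting zone carried less message for link protein and both matrilins in the unpaired fit, and for aggrecan as well with the mouse as a block. Of the 6 genes, 3 were called lower in the resting zone, *Hapln1*, *Matn1* and *Matn3*, at an adjusted p below 0.01 and a log2 fold change below -1. Over all 3793 tested genes, those left by edgeR's filter for low counts, 6.93% were called lower in the resting zone and 18.0% in either direction. All 6 genes passed the filter. *Acan*, *Comp* and *Ucma* were not called. These calls come from edgeR's quasi-likelihood test, which is stricter here than the likelihood ratio test named in the methods of the study, and they do not pair the libraries of a mouse. The likelihood ratio test called *Acan* as well (adjusted p = 0.00150), where 10.2% of all tested genes were called lower, and so did the quasi-likelihood test with the mouse as a block, where 6.06% were. Each made 4 of the 6 genes. The median log2 fold change of the 6 genes was -1.99, beside 0.08 over all tested genes. For 4 of the 6, namely *Acan*, *Hapln1*, *Matn1* and *Matn3*, every resting library lay below every proliferative library, a pattern held by 15.1% of all tested genes, while 17.8% had the opposite one. For each of these 4 the exact two-sided permutation test over the libraries, unpaired, gave p = 0.0286, the smallest value that 4 libraries against 4 allow. Within the mice, 23 of the 24 comparisons between the resting and proliferative library of the same animal were lower in the resting zone, and the exception was *Comp* in mouse 6. Thus 5 of the 6 genes were lower in all 4 mice, as were 22.5% of all tested genes. *Matn1* passed the filter only through its proliferative libraries, at 37.7 to 95.4 CPM, against 0 to 9.95 CPM in the resting ones. Its lack of overlap, its permutation p and its direction within each mouse were therefore set by the filter and are no support.

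**Figure D1:**
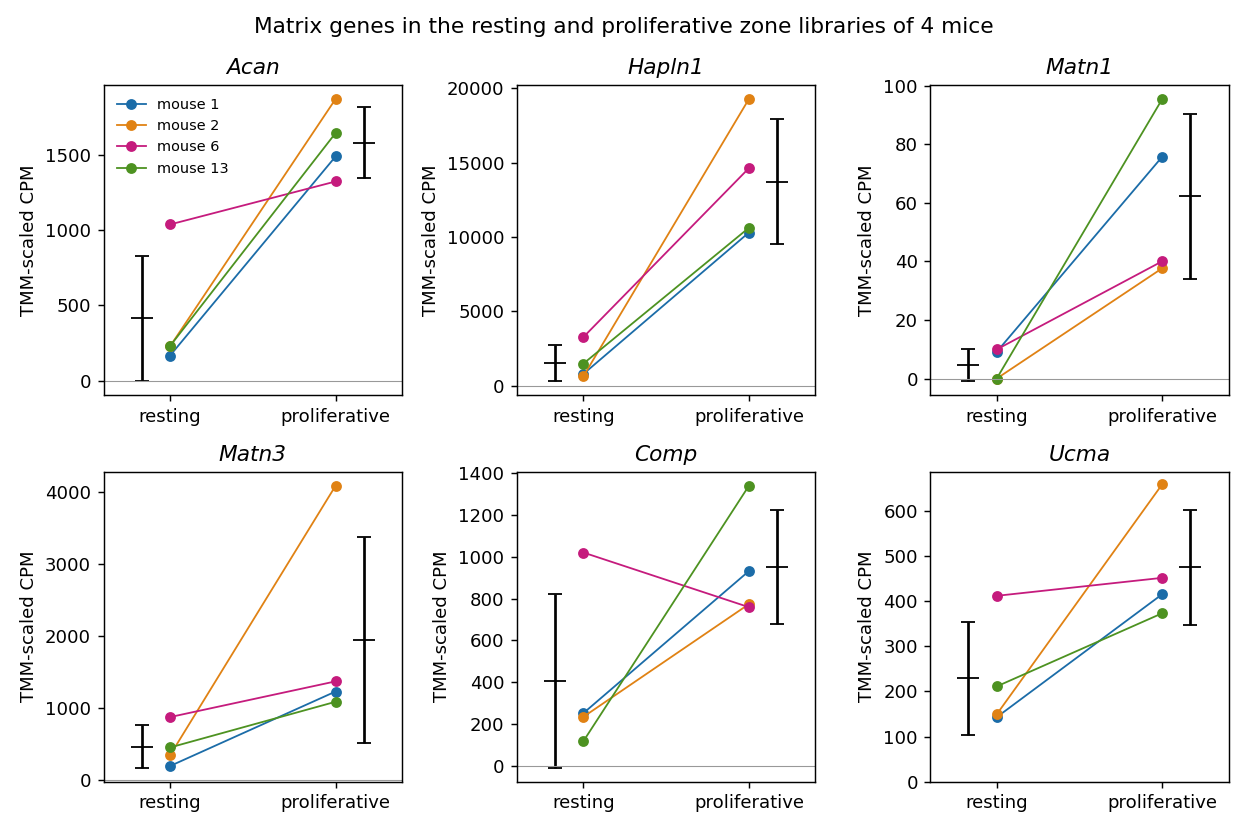
CPM of the 6 genes (vertical axis, linear, 1 panel per gene) in the resting and the proliferative library of each of 4 mice, with a line joining the libraries of a mouse and a black bar for the mean ± SD of a zone (n = 4). Lines climb to the right in every panel apart from that of mouse 6 for *Comp*, which goes from 1021 to 759 CPM.

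*Acan* (ENSMUSG00000030607, GRCm38 chromosome 7, 79053483 to 79115099, plus strand) encodes the core protein of aggrecan. Its counts were 55, 72, 521 and 47 in the resting libraries of mice 1, 2, 6 and 13 and 766, 1091, 825 and 396 in the proliferative ones, or 167, 228, 1037 and 231 CPM against 1487, 1868, 1322 and 1642 CPM. Resting libraries of 3 mice formed a narrow low group, mouse 6 stood well above them, and even that library stayed under the lowest proliferative one. The fold between the zones within a mouse was 8.90, 8.18 and 7.12 in mice 1, 2 and 13 and 1.27 in mouse 6. Over all libraries the log2 fold change was -1.91 (SE 0.49, adjusted p = 0.0109), which missed the limit of 0.01 in the quasi-likelihood test. When the mouse entered the model as a block, it was -2.36 (SE 0.45, adjusted p = 0.00286), and the gene was then called. The gene is one that the study picked on these libraries as an example of lower expression in resting chondrocytes, so its direction in the same libraries is not independent evidence. Other assays of the study were not analysed here.

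*Hapln1* (ENSMUSG00000021613, chromosome 13, 89539796 to 89611652, plus strand), the link protein gene, had the highest level per length of the 6 in the proliferative zone. Its resting libraries held 796, 637, 3273 and 1492 CPM in mice 1, 2, 6 and 13, and its proliferative libraries 10303, 19269, 14626 and 10622 CPM. The zones were far apart, and mouse 6 was again the highest of the resting libraries. The mean rose from 1549 ± 1207 CPM in resting to 13705 ± 4199 CPM in proliferative libraries (SD, n = 4 each). The log2 fold change was -3.14 (SE 0.47, adjusted p = 0.000485). The fold within a mouse was 12.9, 30.2, 4.47 and 7.12 in mice 1, 2, 6 and 13. *Hapln1* kept its call in all 17 other settings that were tried.

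The matrilins were both called, at very different levels. *Matn1* (ENSMUSG00000040533, chromosome 4, 130944385 to 130955475, plus strand) encodes matrilin-1, also known as cartilage matrix protein. Only 3, 0, 5 and 0 counts fell on it in the resting libraries of mice 1, 2, 6 and 13, against 39, 22, 25 and 23 in the proliferative ones. In CPM these were 9.11, 0, 9.95 and 0 against 75.7, 37.7, 40.0 and 95.4. The resting libraries of mice 1, 2 and 13 were thus at or under the level of 3 counts, which is 9.11, 9.51 and 14.7 CPM in them. In those of mice 2 and 13 no count was seen. That of mouse 6, at 9.95 CPM, lay above its own level of 5.97 CPM. The log2 fold change was -3.36 (SE 0.69, adjusted p = 0.00292), a fitted value that depends on the prior count. Summed over libraries, 8 resting counts stood against 109 proliferative ones, and the rate was 9.37 times higher in the proliferative zone (95% exact interval 4.59 to 22.3). Such intervals and floors take in counting error alone, since amplification makes several reads of a molecule and no molecular identifiers were used. Without the resting library of mouse 6, 3 resting counts were left and the ratio was 15.7 (5.23 to 77.3). *Matn1* was picked by the study on these libraries too. Its call was lost without the proliferative library of mouse 13 (adjusted p = 0.0101), at a log2 fold change of -3.26.

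*Matn3* (ENSMUSG00000020583, chromosome 12, 8947929 to 8972028, plus strand) encodes matrilin-3, which assembles with matrilin-1 in growth cartilage. Its resting libraries held 188, 336, 869 and 447 CPM in mice 1, 2, 6 and 13, and its proliferative libraries 1225, 4087, 1366 and 1082 CPM. The zones did not overlap, but the proliferative library of mouse 2 held more than the other 3 together, and the gap between the highest resting and the lowest proliferative library was small. The mean was 460 ± 293 CPM against 1940 ± 1436 CPM (SD, n = 4 each), with a log2 fold change of -2.07 (SE 0.51, adjusted p = 0.00821). The call was lost when the proliferative library of mouse 2 was left out (log2 fold change -1.47, adjusted p = 0.0255). It was also lost without the resting library of mouse 1, 2 or 13 (adjusted p = 0.0212, 0.0223 and 0.0250), with log2 fold changes of -1.83, -1.96 and -2.08 that stayed close to that over all libraries. The fold within a mouse ran from 1.57 in mouse 6 and 2.42 in mouse 13 to 6.50 in mouse 1 and 12.2 in mouse 2.

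The start regions of the matrilin genes are shown because both genes were called and their annotated starts are the same in RefSeq and GENCODE. Each is the 250 bases before the start, from RefSeq's table for GRCm38.p6, 5′ to 3′ on the plus strand, at chr4:130944135-130944384 for *Matn1* and chr12:8947679-8947928 for *Matn3*. Capitals mark the GC box GGGCGG or its complement CCGCCC.
Matn1: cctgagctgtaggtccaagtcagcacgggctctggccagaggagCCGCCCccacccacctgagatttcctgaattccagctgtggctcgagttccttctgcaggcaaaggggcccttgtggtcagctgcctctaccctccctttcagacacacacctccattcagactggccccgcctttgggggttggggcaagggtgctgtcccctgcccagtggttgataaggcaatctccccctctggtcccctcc
Matn3: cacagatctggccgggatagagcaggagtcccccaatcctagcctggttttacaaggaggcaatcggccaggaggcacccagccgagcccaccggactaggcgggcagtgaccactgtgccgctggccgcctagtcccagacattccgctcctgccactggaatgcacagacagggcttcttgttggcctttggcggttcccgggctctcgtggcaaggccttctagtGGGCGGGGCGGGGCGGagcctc
The *Matn1* window held 1 GC box, 206 to 201 bases before the start, and the *Matn3* window 3 that overlap each other within 22 bases of the start. Of 32851 mouse windows of this length, 32.7% held at least 1. Of the 6 genes, 5 had a window in the table, and those of *Acan*, *Hapln1* and *Ucma* held 3, 0 and 0 GC boxes. On both strands, none of the 5 windows held the TATA box TATAAA, found in 12.4% of all windows, or any of the 8 SOX heptamers of the form NNCAANG with A or T at each N, of which at least 1 was found in 21.8%. This says only that these letters are not in these windows.

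*Comp* (ENSMUSG00000031849, chromosome 8, 70373558 to 70382066, plus strand) was the gene of the set with the least clear difference. COMP binds collagens and matrilins through its arms and is a product of tendon as well as of cartilage. The resting libraries held 252, 235, 1021 and 118 CPM in mice 1, 2, 6 and 13, and the proliferative libraries 932, 774, 759 and 1340 CPM. In mice 1, 2 and 13 the resting library was the lower one, by 3.70, 3.30 and 11.4 times, whereas in mouse 6 the resting library was 1.34 times the proliferative one. The zones therefore overlapped. The mean was 406 ± 414 CPM against 951 ± 271 CPM (SD, n = 4 each), with a log2 fold change of -1.20 (SE 0.52, adjusted p = 0.101, exact two-sided permutation p = 0.114), and the block on mice gave an adjusted p of 0.0343. This difference did not hold up against the spread between the libraries.

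*Ucma* (ENSMUSG00000026668, chromosome 2, 4976122 to 4985748, plus strand), whose product is also called Gla-rich protein, had the smallest difference. Its resting libraries held 143, 149, 412 and 211 CPM in mice 1, 2, 6 and 13, and its proliferative libraries 415, 659, 452 and 373 CPM. All 4 mice had less in the resting zone, but the resting library of mouse 6 lay above the proliferative library of mouse 13 and nearly reached that of mouse 1. The mean was 229 ± 126 CPM against 475 ± 127 CPM (SD, n = 4 each), with a log2 fold change of -1.04 (SE 0.35, adjusted p = 0.0369) that did not pass. The fold within a mouse was 2.91, 4.42, 1.10 and 1.77 in mice 1, 2, 6 and 13, and the exact two-sided permutation test gave p = 0.0571.

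The resting library of mouse 6 was the highest of the 4 resting libraries for 6 of 6 genes, and mouse 6 had the smallest difference between its zones for each of them. On the log2 CPM scale, this library had moved from the mean of the other 3 resting libraries towards the proliferative mean by 34.6% of the way for *Matn1*, 47.7% for *Hapln1*, 61.9% for *Matn3*, 79.5% for *Acan*, 88.4% for *Ucma* and 106% for *Comp*. Over the 349 genes called lower in the resting zone in a fit without this library, the median was 34.7% (quartiles 8.72% and 58.2%). Its 10 chondrocyte markers were all above those of the other resting libraries. Of 10 osteoblast and osteocyte markers, 7 were below them and 2 above. The numbers above and below them were 4 and 0 of 7 hypertrophic, 2 and 0 of 7 osteoclast and 2 and 3 of 10 leukocyte markers. They were 0 and 2 of 7 erythroid, 0 and 1 of 6 endothelial and 1 and 5 of 8 stroma markers. The part of this cell mixture in the values of the 6 genes was not tested. Without this library, which was left out as 1 of 8 in turn, all 6 genes were called lower in the resting zone, where 9.61% of 3631 tested genes were. The log2 fold changes were -2.94 for *Acan* (SE 0.24, adjusted p = 3.76e-05), -3.84 for *Hapln1*, -4.02 for *Matn1*, -2.62 for *Matn3*, -2.24 for *Comp* (SE 0.32, adjusted p = 0.000459) and -1.54 for *Ucma* (SE 0.28, adjusted p = 0.00156).

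**Figure D2:**
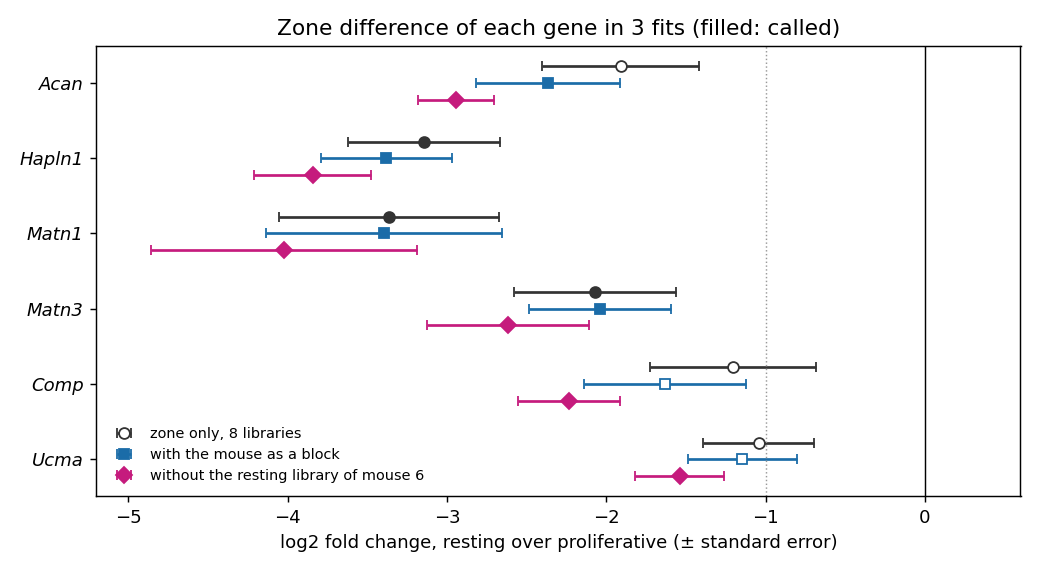
Log2 fold change, resting over proliferative, with its standard error (horizontal axis) for each gene in the fit on 8 libraries with the zone only, in the fit with the mouse as a block, and in the fit without the resting library of mouse 6. Filled symbols were called, and only without that library are *Comp* (-2.24) and *Ucma* (-1.54) filled.

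**Figure D3:**
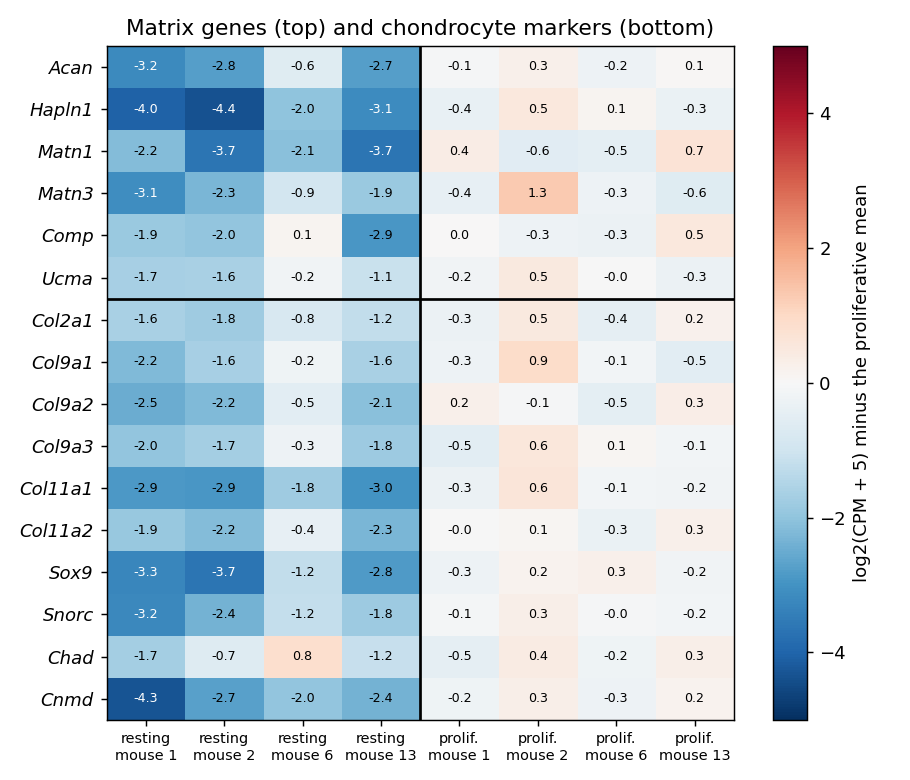
Difference of each library (columns) from the mean of the 4 proliferative libraries in log2(CPM + 5) for the 6 matrix genes (top rows) and the 10 chondrocyte markers (bottom rows), with blue for lower and red for higher values. The column of the resting library of mouse 6 is paler than those of the other 3 resting libraries in nearly all rows, and red for *Comp* and *Chad*.

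In the proliferative zone, CPM per kilobase of annotated exon averaged 2322 ± 711 for *Hapln1*, 644 ± 476 for *Matn3*, 537 ± 144 for *Ucma*, 321 ± 91.2 for *Comp*, 212 ± 31.1 for *Acan* and 31.1 ± 14.1 for *Matn1* (SD, n = 4 each). *Hapln1* stood clear of all others, and the ranges of *Comp* and *Acan* and of *Acan* and *Matn1* did not overlap either, while those of *Matn3* and *Ucma*, and of *Ucma* and *Comp*, did. *Matn3* lay above *Ucma* on average through the proliferative library of mouse 2 (1356), while in the 3 other proliferative libraries, as in all 4 resting ones, *Ucma* was the higher of the pair. In the resting zone the averages were 263 ± 205 for *Hapln1*, 259 ± 142 for *Ucma*, 153 ± 97.1 for *Matn3*, 137 ± 139 for *Comp*, 55.6 ± 55.6 for *Acan* and 2.38 ± 2.76 for *Matn1* (SD, n = 4 each). There *Hapln1* and *Ucma* could not be ordered, as *Hapln1* was the higher one in 2 of 4 libraries. All neighbours in that order overlapped apart from *Acan* and *Matn1*. RNA was amplified in rounds of in vitro transcription, and its effect on values per length was not tested.

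Ratios of a pair of genes within a library, taken on CPM + 5, depend little on the scaling where both genes are well above the added 5, which *Matn1* is not, and address whether the genes differed between the zones by unequal amounts. For the 15 pairs, none passed an adjusted p of 0.05 in an exact two-sided permutation test, and 5 had an unadjusted p of 0.0286, the smallest possible, with an adjusted p of 0.0857. At least 9 pairs at the smallest p would have been needed for any to pass, so this test says little about the absence of a difference. The largest of these was *Hapln1* over *Ucma*, whose mean log2 ratio of CPM + 5 was 2.57 ± 0.40 in resting and 4.82 ± 0.16 in proliferative libraries (SD, n = 4 each), a difference of -2.26. The ratios of *Hapln1* to *Matn3* and of *Acan* to *Ucma* were also lower in every resting library, by differences of -1.35 and -1.18, and so was that of *Matn3* to *Ucma* (-0.90). *Acan* over *Hapln1* went the other way, with a difference of 1.08. Within the mice, the log2 ratio of *Hapln1* to *Ucma* was lower in the resting library by a difference of -2.18, -2.80, -2.03 and -2.02 in mice 1, 2, 6 and 13 (mean -2.26, SD 0.37, n = 4), and that of *Hapln1* to *Matn3* by -1.02, -1.32, -1.51 and -1.56. Of the 15 pairs, 7 had the same sign in all 4 mice. An exact two-sided test over 4 mice cannot give a p below 0.125, and none was run.

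The labels give 2 male and 2 female mice. The zone difference in log2 CPM averaged -4.30 in males and -2.49 in females for *Hapln1*, -3.13 and -0.96 for *Matn3*, -3.06 and -1.58 for *Acan*, and -1.81 and -0.47 for *Ucma*. *Comp* stood at -1.78 in males and -1.52 in females. *Matn1* stood at -2.83 and -2.99, values that depend on the prior count, since 1 resting library of each sex had no count of it. Mouse 6 is 1 of the 2 females. In edgeR's test of the interaction of zone and sex none of the 6 genes passed, with adjusted p-values of 0.724 for *Acan*, *Hapln1*, *Matn3* and *Ucma*, 0.918 for *Comp* and 0.987 for *Matn1*. An unadjusted p below 0.05 was found for 4 of the 6, and for 6.59% of all tested genes, of which 1 passed after adjustment.

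Among all tested genes, those with the profile over the 8 libraries nearest to each member were found by the root mean square distance between log2 CPM values centred on each gene's mean. For *Acan* these were *Thbs3*, a thrombospondin that shares exons with *Mtx1* on the opposite strand, at 0.28, *Colgalt2*, a collagen galactosyltransferase, at 0.30, and *Ltv1* at 0.31, beside a median of 1.47 over all genes. *Hapln1* was nearest to *Efcab1* (0.24), *C1qtnf3* (0.28) and *Prelp* (0.30), a leucine-rich repeat protein of cartilage matrix, with a median of 1.91. *Matn1*, with its few counts, had more distant neighbours in *Slc5a3* (0.40), *P4ha2* (0.42) and *Slc38a4* (0.48). *Matn3* lay near *Sap30* (0.36), *Col9a1* (0.39), a chain of type IX collagen, and *Krt10* (0.39). The nearest genes to *Comp* were *Lyrm4* (0.30), *Fgfr3* (0.32), the receptor whose activation causes achondroplasia, and *Col11a2* (0.34), a chain of type XI collagen. The smallest distances were those of *Ucma* to *Tceal8* (0.18), *Cacna1d* (0.22) and *Itm2a* (0.23), but its median of 0.94 was also the lowest. The medians of *Matn1*, *Matn3* and *Comp* were 1.69, 1.39 and 1.28. All these distances are descriptions over 8 libraries that share their zones and mice.

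Genes that act with these proteins were grouped in 7 lists. Of 26 genes of the machinery that builds chondroitin sulfate, the chains of aggrecan, 14 were tested, and 7 were called lower in the resting zone and 0 higher, beside 6.93% and 11.0% of all tested genes. The median log2 fold change over the 14 was -1.73. *Papss2*, which makes the sulfate donor, had 153 ± 94.1 CPM in resting and 924 ± 139 CPM in proliferative libraries (SD, n = 4 each), with a log2 fold change of -2.57 (adjusted p = 0.000394). *Chst11*, a chondroitin 4-sulfotransferase, had a log2 fold change of -2.47 (adjusted p = 0.000135) and *Slc26a2*, the sulfate transporter of chondrocytes, one of -1.77 (adjusted p = 0.000725). *Fam20b*, a kinase of the linkage sugar, was at -3.30 (adjusted p = 0.000484), but it had 194 counts in all beside 11648 for *Gm19918* on the opposite strand, with which it shares exons. *Slc35d1*, *Bpnt2* and *Ugdh* were the remaining called genes, named here after their values were seen.

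Of 16 genes for hyaluronan and for relatives of aggrecan and link protein, 5 were tested, and 2 were called lower and 1 higher in the resting zone, beside the same 6.93% and 11.0%. *Has2*, a hyaluronan synthase, had 22.5 ± 15.6 CPM against 126 ± 42.9 CPM (SD, n = 4 each), with a log2 fold change of -2.43 (adjusted p = 0.00229). *Vcan*, the proteoglycan versican, had a log2 fold change of -3.14 (adjusted p = 0.00267). *Cd44*, a hyaluronan receptor found on many cells including leukocytes, had a log2 fold change of 4.74 (adjusted p = 0.000306). It was thus higher in the resting zone, where the leukocyte markers were also higher. *Cemip2* was at 0.97 (adjusted p = 0.126). Without the resting library of mouse 6 the counts were the same, beside 9.61% of all tested genes called lower and 13.0% higher. With the mouse as a block, where these shares were 6.06% and 10.2%, the adjusted p of *Vcan* was 0.0107, just over the limit, at a log2 fold change of -3.15.

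Of 16 genes for enzymes that cut aggrecan and for their activators and inhibitors, 7 were tested, and 0 were called lower and 1 higher in the resting zone, where 11.0% of all tested genes were called higher. The called gene was *Mmp13*, a collagenase of hypertrophic chondrocytes and osteoblasts, with 537 ± 174 CPM against 21.6 ± 29.8 CPM (SD, n = 4 each) and a log2 fold change of 4.66 (adjusted p = 0.00109). The summed level of the osteoblast and osteocyte markers was also higher in the resting libraries, although *Sp7* of that list, which was not called, lay below the proliferative libraries in each of them (log2 fold change -1.30, adjusted p = 0.0471). *Timp3*, an inhibitor of aggrecanases, was at 1.88 (adjusted p = 0.0161), with 202 counts beside 15438 for *Syn3* on the opposite strand. *Mmp14* and *Htra1* were at 1.37 and 1.19 (adjusted p = 0.0239 and 0.0455).

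Of 16 partners and relatives of the matrilins and COMP, 12 were tested, 4 were called lower and 2 higher, beside 6.93% and 11.0% of all tested genes, with a median of -1.32. The small leucine-rich proteins *Prelp* and *Fmod* fell, with log2 fold changes of -3.09 and -1.76 (adjusted p = 0.000135 and 0.000631), and *Prelp* shares exons with *Gm15851* on the opposite strand, which had 4887 counts beside 5006. *Dcn*, decorin, and *Fn1*, fibronectin, rose, with log2 fold changes of 3.04 and 2.98 (adjusted p = 8.78e-05 and 0.000265). *Dcn* is also a marker of the stroma list, whose sum was 631 to 911 CPM in the resting and 137 to 219 CPM in the proliferative libraries. *Col2a1* and *Col9a2* were the other called genes, named after their values were seen. Without the resting library of mouse 6, 8 of the 12 were called lower and 2 higher, beside 9.61% and 13.0% of all tested genes. Of 18 other noncollagenous genes of cartilage matrix, 11 were tested and 4 were called lower, where 6.93% of all tested genes were, and 0 higher. The 4 were *Scrg1* (-3.48, adjusted p = 0.000412), *Epyc* (-3.38, adjusted p = 0.000579), *Cnmd* (-2.67, adjusted p = 0.000485) and *Snorc* (-2.07, adjusted p = 0.00239). *Epyc* shares exons with *Gm10754* on the opposite strand, and *Cnmd* and *Snorc* are also in the chondrocyte marker list. In the fit without the resting library of mouse 6, 6 of these 11 were called lower and 0 higher, beside 9.61% and 13.0% of all tested genes. *Scrg1* was then at -4.57.

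For *Ucma*, the list of vitamin K dependent carboxylation held 10 genes, of which 3 were tested, 0 called lower and 1 higher, a direction taken by 11.0% of all tested genes. *Ggcx*, the carboxylase itself, was at 91.1 ± 44.7 CPM in resting and 73.8 ± 15.1 CPM in proliferative libraries (SD, n = 4 each), with a log2 fold change of 0.27 (adjusted p = 0.653). *Pros1*, protein S, rose by 2.23 in the resting zone (adjusted p = 0.00768), and was at 2.16 with the mouse as a block, where the adjusted p of 0.0127 missed the limit. Without the resting library of mouse 6 it had too few counts to be tested. *Mgp*, the matrix Gla protein and thus a relative of *Ucma* by its modified residues, was at 1.47 (adjusted p = 0.0166), and at 0.73 without the resting library of mouse 6 (adjusted p = 0.0241). Of 11 chondrogenic transcription factors, 6 were tested, and 1 was called lower, beside 6.93% of all tested genes, and 0 higher. This was *Sox9*, with 277 ± 243 CPM against 1522 ± 265 CPM (SD, n = 4 each) and a log2 fold change of -2.44 (adjusted p = 0.00176). *Mef2c*, *Sox5* and *Trps1* were at -1.57, -1.33 and -0.53 (adjusted p = 0.0113, 0.0270 and 0.380). Without the resting library of mouse 6, 3 of 5 tested factors were called lower, beside 9.61% of all tested genes. They were *Sox9* (-3.31, adjusted p = 3.83e-05), *Sox5* (-1.80, adjusted p = 0.00552) and *Trps1* (-1.32, adjusted p = 0.00406).

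**Figure D4:**
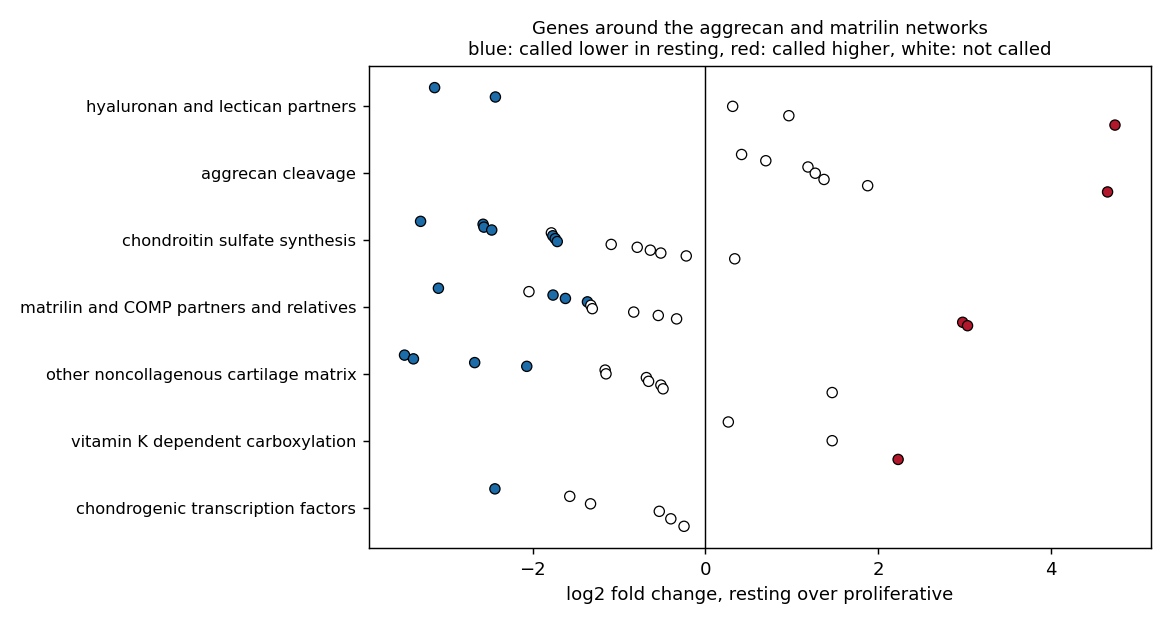
Log2 fold change, resting over proliferative (horizontal axis), of each tested gene in the 7 lists (rows), with points spread vertically within a row for legibility. Blue points were called lower in the resting zone, red points higher and white points not called, and 7 of the 14 genes of chondroitin sulfate synthesis are blue.

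Genes that share exons across strands differed widely in their counts. *Col9a3*, another chain of type IX collagen, shares exons with *Tcfl5* on the opposite strand, and 1756 counts fell on *Col9a3* and 64349 on *Tcfl5*. In the female libraries 1367 counts fell on *Xist*, the abundant RNA of the inactive X chromosome, and 18683 on its antisense partner *Tsix*. Of the counts of the pair, *Col9a3* took 4.46% to 12.9% in the resting and 1.46% to 2.81% in the proliferative libraries, and its log2 fold change was -1.31 where that of *Tcfl5* was -3.57. *Has2*, *Cemip2*, *Fn1*, *Sox5*, *Krt10*, *Lyrm4*, *Fgfr3* and *Cacna1d* also share exons with a gene on the opposite strand. None of the 6 matrix genes has an annotated exon in common with a gene on the opposite strand, so no partner could be read in this way. The strand setting of the counting is not given in the sources used here. If reads were counted against the strand of their RNA, the counts of the 6 genes hold only part of their reads, which was not tested. Their levels and fold changes are those of the counted reads.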

How the data were processed

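RNA from laser-microdissected resting and proliferative chondrocytes was amplified in 2 rounds before library preparation. The authors aligned reads to GRCm38 with HISAT2 2.1.0 and counted them with HTSeq 0.11.2, per the submitters' processing notes, and deposited raw counts of 43629 genes. A second table that the authors deposited holds their own comparison, with a TMM-scaled signal per library, log2 fold changes, a likelihood ratio score and p-values. From it the gene names alone were used. Here, counts were analysed with edgeR 4.0.16 in R 4.3.3 (TMM factors 0.934 to 1.09, a minimum count of 10 and minimum total of 15 in the filter by zone, common biological coefficient of variation 0.380). The quasi-likelihood test with the zone as the only term was run over all 3793 genes that passed, of 17492 with a count, with Benjamini-Hochberg adjustment, and every adjusted p in the text comes from it unless another test is named. CPM for single values used no added count, log2 CPM used a prior count of 2, and log2 ratios used CPM + 5. A count of 0 allows up to 3 counts, which is 5.97 to 14.7 CPM in the resting and 4.81 to 12.4 CPM in the proliferative libraries.

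Libraries with the same number come from the same animal by the labels, so the numbers pair them. With each zone centred on its mean, the paired libraries correlated over genes at 0.195, 0.0104, 0.144 and 0.0635 for mice 1, 2, 6 and 13, and their mean correlations with other mice lay between -0.0624 and -0.00499. The methods of the study name no block, so the fit without one is the main one. All libraries of a zone differed by more than sampling noise (chi-square per degree of freedom 4.94 to 15.6). Nothing was read from a genome, and gene positions are those of GENCODE M21 on GRCm38.

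The 6 genes and the lists were chosen with earlier results of these data known. Named genes are the 6, the up to 4 genes of each list with the lowest adjusted p, and the 3 nearest profiles of each of the 6. Alternatives tried were the likelihood ratio test that the study's methods name, DESeq2 1.42.0, other scaling factors, other filters, the mouse as a block, an adjusted p threshold of 0.05, other added counts in the ratios, and each library left out. Leaving out both libraries of mouse 6 was added after seeing the data. In counts simulated from the observed means and depths, in which 3956 genes passed the filter, the quasi-likelihood test called 67 of 94 genes changed by a log2 of 2 (71.3%), 92 of 97 changed by 3 (94.8%) and 1 of 3765 unchanged genes. The simulated libraries were independent draws with edgeR's own dispersions. They held no mouse effect, no cell mixture and no shifted library, so these rates do not carry over to the libraries here. Plots were drawn with matplotlib 3.10.9.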

Additional observations from a re-analysis of the deposited data

Results flagged for a closer look

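Among the 12 groups of 4 libraries (6 genes in 2 zones), 3 held a library far from the other libraries of its zone by Dixon's test at 95%, where chance flags about 1 in 20. *Acan* stood at 1037 CPM in the resting library of mouse 6, against 167 to 231 CPM in the other 3 resting libraries. *Comp* stood at 1021 CPM in the same library, against 118 to 252 CPM. *Matn3* stood at 4087 CPM in the proliferative library of mouse 2, against 1082 to 1366 CPM in the other 3 proliferative libraries.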

How the results depend on the processing

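All 101 alternative values for the zone differences of the 6 genes kept their direction, and 79 kept their side of the threshold. *Acan* passed it with the likelihood ratio test (log2 fold change -1.92), DESeq2 (-1.95), relative log expression factors (-1.94), all genes with a count (-2.10), at least 10 counts in every library (-1.85), the mouse as a replicate block (-2.36), an adjusted p threshold of 0.05 (-1.91) and without both libraries of mouse 6 (-3.03). *Comp* and *Ucma* passed with all genes with a count (-1.39 and -1.26) and without mouse 6 (-2.34 and -1.58), and *Ucma* at an adjusted p threshold of 0.05 (-1.04). *Matn3* missed it with library totals alone (-1.91). The block changed no call of a member other than that of *Acan*. With 1 library left out in turn, the log2 fold changes ran from -2.94 to -1.67 for *Acan*, -3.84 to -2.90 for *Hapln1*, -4.02 to -3.01 for *Matn1*, -2.62 to -1.47 for *Matn3*, -2.24 to -0.94 for *Comp* and -1.54 to -0.89 for *Ucma*. Genes called over the whole table, 263 lower and 419 higher in the resting zone, numbered 468 and 829 with all genes with a count, 137 and 125 with at least 10 counts in every library, which tests fewer genes and leaves out *Matn1*, and 427 and 635 at 0.05. They ran from 183 to 349 and from 255 to 472 with 1 library left out, and without the proliferative library of mouse 2 they were 183 and 255. With library totals alone the median of all tested genes moved to 0.20 from 0.08, and 69.5% of the called genes were higher in the resting zone, against 61.4%, and 47.7% with at least 10 counts in every library. Of the ratios between members, 3 turned: *Hapln1* to *Matn1* with CPM + 1 (0.77 from -0.51), *Acan* to *Matn1* with CPM + 10 (-0.011 from 0.56) and *Matn3* to *Comp* without the proliferative library of mouse 2 (-0.39 over all libraries, -0.87 to 0.13 with 1 library left out). The causes were not tested. Depth limits *Matn1* most, at 0 to 5 counts per resting library.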

Other observations

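Values set against *Col2a1*, the gene of the main cartilage collagen, were chosen after the data were seen and are given without a test. On this measure *Acan*, *Matn1* and *Matn3*, whose zones did not overlap in CPM, overlapped, and *Comp* and *Ucma* overlapped on both. *Hapln1* averaged 23.5% ± 11.1 of the *Col2a1* count in the resting libraries and 93.1% ± 30.4 in the proliferative ones (SD, n = 4 each). It was the 1 gene of the 6 whose zones did not overlap on this measure, with a log2 difference of -2.03. *Acan* averaged 6.20% ± 4.18 against 10.7% ± 1.68 and *Matn3* 7.29% ± 2.64 against 12.1% ± 5.71 (SD, n = 4 each). *Matn1* averaged 0.0773% ± 0.0940 against 0.429% ± 0.196 (SD, n = 4 each), a log2 difference of -1.52. *Comp* averaged 6.18% ± 4.31 against 6.50% ± 1.87 and *Ucma* 3.67% ± 0.85 against 3.22% ± 0.82 (SD, n = 4 each), a log2 difference of 0.23 for *Ucma*. The resting library of mouse 6 held 12.4% for *Acan* and 12.2% for *Comp*, above the other resting libraries at 3.50% to 5.23% and 1.89% to 5.37%.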
